A study of Mus musculus with 2 samples.

Results

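Cycling cells of the mouse anterior eye segment were taken as barcodes with at least 1 unique molecular identifier (UMI, a tag that counts 1 captured RNA molecule) of Mki67 and at least 1 of Top2a. Barcodes needed at least 1000 UMIs and at most 8% UMIs of mitochondrial genes. This left 10369 cells in the library of Foxc2fl/fl control mice and 10399 in the library of NC-Foxc2-/- mice, of which 204 and 57 were cycling, or 261 of 20768 in all. The control mice carried the floxed Foxc2 alleles without Cre. NC-Foxc2-/- mice carried Wnt1-Cre and the same floxed alleles, so that Foxc2, a forkhead transcription factor, was to be removed in the neural crest lineage, which gives rise to corneal stroma, trabecular meshwork and ciliary mesenchyme but not to the corneal epithelium. Both groups were of mixed genetic background and 3 to 4 weeks old, 4 weeks in the sample labels, and mutants whose ocular phenotype was of moderate severity were chosen. The anterior segments of 4 to 6 mice per genotype were pooled after removal of the iris and dissociated to single cells, and 1 droplet library of 3' transcript ends was made per pool. Mice within a pool share 1 library, so no test between genotypes was possible, and each difference below is a difference between these 2 libraries.

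Mki67 encodes the Ki-67 protein that coats mitotic chromosomes, and Top2a encodes topoisomerase II alpha, which untangles replicated DNA. Transcripts of both build up from S phase to mitosis and are low in resting cells, so that cells in early G1 are missed by them. In the corneal epithelium, dividing cells lie in the basal layer and at the limbus and replace cells shed from the surface, while adult corneal keratocytes, meshwork cells and pericytes divide rarely. The promoters of genes used in G2 and mitosis are known for CCAAT boxes, bound by NF-Y, and for a cell cycle homology region with the letters TTTGAA, bound by complexes that hold these genes off in resting cells. The promoters of S phase genes are known for E2F sites.

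The stretches directly before the RefSeq start of the genes that chose the cells, Top2a and Mki67, and of Cdk1 and Ccnb2, which encode the mitotic kinase and one of its cyclins, are shown here because transcripts of these genes were high together in the cycling cells of both libraries. Each is 120 bases of GRCm38.p6 read 5′ to 3′ along the gene, and all 4 genes lie on the minus strand, Cdk1 at chr10:69352913-69353032, Ccnb2 at chr9:70421555-70421674, Top2a at chr11:99024190-99024309 and Mki67 at chr7:135716380-135716499. Capitals mark CCAAT and TTTGAA on either strand, so that they also mark ATTGG and TTCAAA.
Cdk1: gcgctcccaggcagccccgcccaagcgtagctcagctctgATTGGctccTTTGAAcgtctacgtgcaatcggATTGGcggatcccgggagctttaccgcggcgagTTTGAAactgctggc
Ccnb2: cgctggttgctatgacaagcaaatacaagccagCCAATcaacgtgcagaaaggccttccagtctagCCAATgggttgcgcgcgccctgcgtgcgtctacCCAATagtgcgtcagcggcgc
Top2a: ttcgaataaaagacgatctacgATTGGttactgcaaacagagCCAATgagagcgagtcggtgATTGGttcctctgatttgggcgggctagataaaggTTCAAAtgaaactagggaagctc
Mki67: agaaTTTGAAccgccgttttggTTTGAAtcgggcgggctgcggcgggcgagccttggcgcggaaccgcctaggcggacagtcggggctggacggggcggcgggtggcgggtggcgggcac

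The Top2a stretch held 3 CCAAT boxes and 1 TTTGAA, the Cdk1 stretch 2 of each, the Ccnb2 stretch 3 CCAAT boxes and the Mki67 stretch 2 copies of TTTGAA. Over windows of 300 bases, 250 before and 50 after the start, 40 of the 48 genes of the G2/M list with Mki67 and Top2a added were found in the RefSeq table, and 44 windows belonged to them. TTTGAA on either strand was found in 29 of these windows (65.9%), against 17.9% of all 32851 windows. CCAAT was found in 35 (79.5%), against 37.4% of all windows, and the E2F letters TTTCGCGC or TTTGGCGC in 2 (4.55%), against 0.813%. Only 30 of the 40 S phase genes had a window, so the same check was void for that list and its shares are not given. These matches describe the letters in the windows and not the use of a site.

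Of 11285 control and 11656 NC-Foxc2-/- barcodes in the files, the cells kept had medians of 8078 and 6835 UMIs. The libraries shared 52 barcodes, 1 of them among the cycling cells, and cells were told apart by library. Doublet calls covered 3% and 4.02% of the barcodes in the files, and doublets were kept. Foxc2 was read at 18.0 CPM (UMIs of a gene per 1000000 UMIs of its cells, interval 16.9 to 19.0) in the control and 7.63 CPM (7.03 to 8.27) in the NC-Foxc2-/- cells that the genes Dcn and Col1a1 assigned to stroma. The exons that the deletion removes are not given here, so 3' tags may remain from a deleted allele. In cycling cells Foxc2 gave 14 UMIs in 204 control and 2 UMIs in 57 NC-Foxc2-/- cells. Intervals in the text are exact 95% intervals, binomial for shares, Poisson for CPM and conditional binomial for ratios. They hold the counting error alone, as the cells of a library share its pool of mice.

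The cells carried many further genes of division besides the 2 that chose them. Of the 46 genes of the G2/M list, which does not hold Mki67 or Top2a, the control cycling cells had a UMI of 25.5 (median) and the NC-Foxc2-/- ones of 22, against 1 in cells with neither marker in each library. At least 5 of these genes were found in 202 of 204 and 53 of 57 cycling cells. The share with 5 such genes was 52.8% and 23.9% in the 199 control and 184 NC-Foxc2-/- cells with Mki67 only, 32.0% and 12.4% in the 244 and 178 cells with Top2a only, and 3.65% and 1.88% in cells with neither. The cells with Mki67 only or with Top2a only lie just outside the rule, and in them the control share was again the larger. Their median depth was also larger in the control, at 16135 against 9144 UMIs with Mki67 only and 14818.5 against 11116 with Top2a only. These shares were not set to equal depth or to equal cell classes. Just inside it, 22 control and 5 NC-Foxc2-/- cells held exactly 1 UMI of each marker. The control cycling cells had a median of 3 Mki67 UMIs (highest 25) and 5 Top2a UMIs (highest 29), and the NC-Foxc2-/- ones of 4 (27) and 4 (42). As a rough measure of free RNA, cells assigned to red blood cells were used, since red blood cells should lack both markers. Mki67 was found in 0.775% of control and 0.580% of NC-Foxc2-/- cells of this class and Top2a in 0.969% and 0.580%, at medians of 4481.5 and 4644.5 UMIs. The control values hold 3 cycling cells with high keratin sums, and without these they were 0.486% and 0.680%. Other cells wrongly assigned to this class were not sought, so free RNA and wrong assignment cannot be told apart in these shares. In epithelium, at medians of 19304.5 and 17898 UMIs, Mki67 was found in 13.6% and 12.9% of cells and Top2a in 13.1% and 9.47%.

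The first question was how many cells of each library were cycling. Cycling cells made up 1.97% of control cells (1.71 to 2.25) and 0.548% of NC-Foxc2-/- cells (0.415 to 0.710). They were large, with medians of 27533.5 and 19507 UMIs, and reached from 3879 to 76557 UMIs in the control and from 3173 to 65320 in the NC-Foxc2-/- library. The depth of a cell bears on whether both markers are seen. With every cell thinned to 1000 UMIs the expected shares were 0.0998% and 0.0522%, near the level of single UMIs. With cells of at least 5000 UMIs thinned to 5000, which used 7811 and 6933 cells and left out 2558 and 3466, they were 0.975% and 0.414%.

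The libraries also differed in which classes of cells they held, and the classes differed in how many cells were cycling. Each cell was assigned to the class with the highest UMI sum of Krt5, Krt14 and Krt12 (epithelium), Dcn and Col1a1 (stroma), Ptprc (leukocytes), Pecam1 and Cdh5 (endothelium) or Rgs5 and Acta2 (mural cells). Epithelium made up 21.2% of kept control cells and 5.14% of kept NC-Foxc2-/- cells, and stroma 58.8% and 80.3%. Within epithelium, 161 of 2199 control cells (7.32%, 6.27 to 8.49) and 35 of 534 NC-Foxc2-/- cells (6.55%, 4.61 to 8.998) were cycling, and the intervals overlap widely. Thinned to 5000 UMIs, the epithelial shares were 2.77% and 2.81%. Outside epithelium, 43 of 8170 (0.526%, 0.381 to 0.708) and 22 of 9865 cells (0.223%, 0.140 to 0.337) were cycling. Had each NC-Foxc2-/- class held the control's share of cycling cells, 94.4 cells or 0.908% would have been cycling, against the 57 cells and 0.548% found. Without the cells high in both keratin and stromal sums, 70.5 cells or 0.681% would have been cycling, against 56 cells and 0.540%. The lower total in the NC-Foxc2-/- library thus went with a smaller epithelial share of the cells captured. Before any thinning, it also went with a lower cycling share outside epithelium. The expected total of 0.908% stayed above the 0.548% found, and the 0.681% without the cells high in both sums stayed above 0.540%. Neither expected total was set to equal depth. These values rest on classes by UMI sums, and most cycling cells assigned to stroma went to other classes when more genes were used. The source of these differences was not tested.

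**Figure D1:**
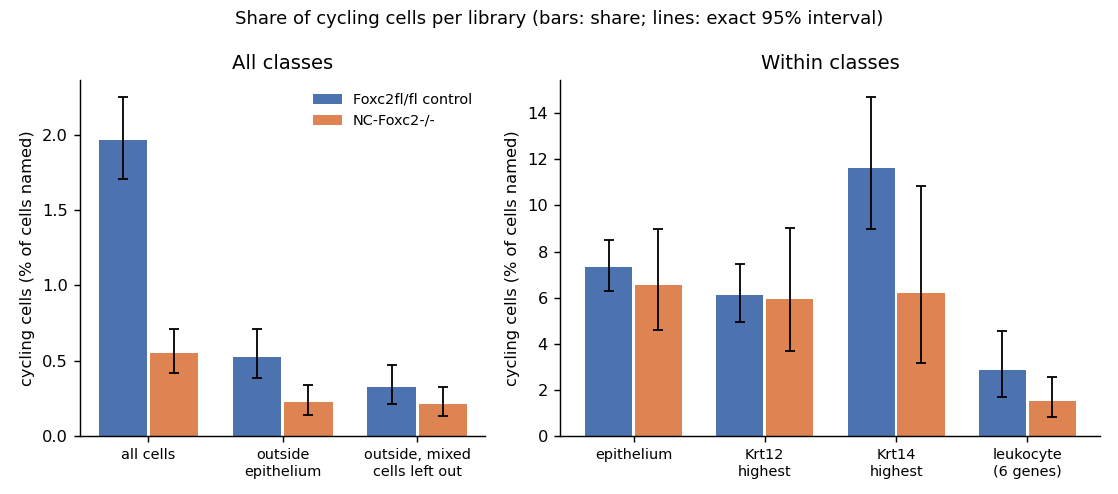
Share of cycling cells in percent of the cells named, for the Foxc2fl/fl control and the NC-Foxc2-/- library. Bars are shares and lines exact 95% intervals. The totals are 1.97% and 0.548%, whereas the epithelial shares of 7.32% and 6.55% have overlapping intervals and the shares outside epithelium are 0.526% and 0.223%.

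Epithelial cells were the main class among the cycling cells of both libraries. In the control they were 161 of 204 (78.9%, 72.7 to 84.3), followed by 35 assigned to stroma (17.2%, 12.3 to 23.0), 4 leukocytes (1.96%), 2 endothelial cells, 1 mural cell and 1 tied cell. In the NC-Foxc2-/- library they were 35 of 57 (61.4%, 47.6 to 74.0), followed by 19 assigned to stroma (33.3%, 21.4 to 47.1), 2 leukocytes (3.51%) and 1 tied cell. No endothelial or mural cell was found among these 57, which allows a share of up to 5.26% for each at a limit of 3 counts, or 6.27% at the exact 95% upper limit. Per class, 35 of 6100 control cells assigned to stroma (0.574%) and 19 of 8349 (0.228%) were cycling, and 4 of 126 (3.17%) and 2 of 114 (1.75%) of those assigned to leukocytes.

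The name stroma did not hold for most of these cells. When cells were assigned by panels of 5 or 6 genes a class, with panels for Schwann cells, melanocytes and red blood cells added, only 4 of the 35 control and 2 of the 19 NC-Foxc2-/- cells stayed in stroma. In the control 13 of the 35 went to epithelium, 11 to leukocytes, 5 to Schwann cells and 2 to mural cells. In the NC-Foxc2-/- library 10 of 19 went to leukocytes, 6 to Schwann cells and 1 to epithelium. At the median, the cells that went to leukocytes held few stromal UMIs, 10 and 4.5 of Dcn and Col1a1, which exceeded the UMIs of the single leukocyte gene Ptprc. These sums ranged from 1 to 1302 in the 11 control and from 2 to 98 in the 10 NC-Foxc2-/- cells. Keratin UMIs reached 590 in the 11 control cells, of which 2 were called doublets. Low levels of these 2 genes were found in most cells, since 62.6% of control and 89.0% of NC-Foxc2-/- leukocytes by panel held a UMI of them, with medians of 1 and 3.

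**Figure D2:**
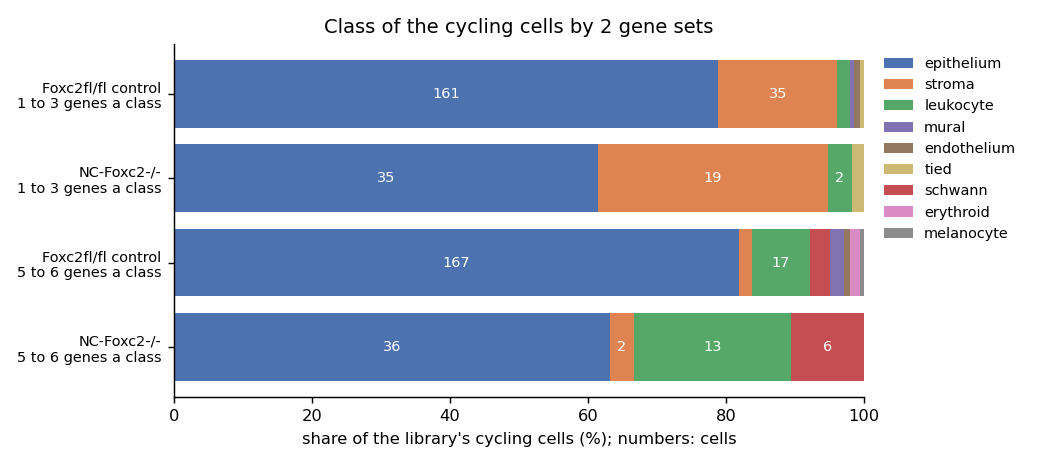
Classes of the cycling cells of each library in percent, with cell counts written in, by the rule's sums of 1 to 3 genes a class and by panels of 5 or 6 genes. The stroma block shrinks from 35 to 4 control cells and from 19 to 2 NC-Foxc2-/- cells, while leukocytes grow to 17 and 13 and Schwann cells appear with 6 and 6.

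Some control cells held both keratin and collagen transcripts at high levels. The 13 control cells that moved from stroma to epithelium held 75 to 903 UMIs of the 3 keratins and 297 to 1527 UMIs of Dcn and Col1a1. At least 50 UMIs of both sums were found in 23 of 204 control cycling cells (11.3%) and in 1 of 57 NC-Foxc2-/- ones, against 1.43% and 0.329% of the other kept cells. Of the 23 control cells, 9 were called doublets, and 17 of the 23 were among the 35 assigned to stroma. Without such cells, cycling cells outside epithelium were 26 of 8064 (0.322%, 0.211 to 0.472) in the control and 21 of 9838 (0.213%, 0.132 to 0.326) in the NC-Foxc2-/- library, and the intervals overlap. The share outside epithelium thus differed between the libraries by 2.36 times with these cells and by 1.51 times without them, before any thinning to equal depth.

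**Figure D3:**
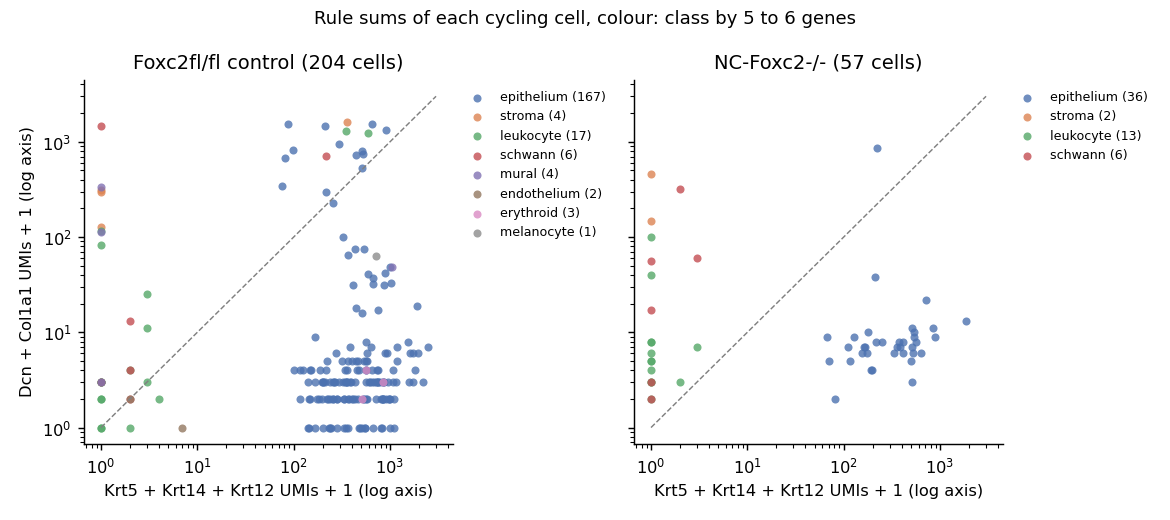
Each dot is a cycling cell, with its UMIs of Krt5, Krt14 and Krt12 plus 1 on the horizontal and of Dcn and Col1a1 plus 1 on the vertical log axis, coloured by panel class, 204 control cells on the left and 57 NC-Foxc2-/- cells on the right. Control cells in the upper right corner, high on both axes, are the 23 with at least 50 UMIs of each sum.

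By the panels, leukocytes came second among the cycling cells, with 17 of 594 control leukocytes (2.86%, 1.68 to 4.54) and 13 of 869 NC-Foxc2-/- leukocytes (1.496%, 0.799 to 2.54). Of the 17 control cells, 2 were called doublets. Among 3 lists compared by UMI sums, macrophage genes were the highest in 10 cells of each library. Genes of T and NK cells were the highest in 5 control and 1 NC-Foxc2-/- cell, and genes of B cells in 1 control cell. The dendritic cell list was not part of this comparison. Of its genes, H2-Ab1 was found in 8 of 17 control and 11 of 13 NC-Foxc2-/- cells and Itgax in 2 and 4. Flt3, Xcr1 and Cd209a were each found in at most 1 cell of a library. C1qa, a complement gene of tissue macrophages, was read at 1596 CPM (control) and 1236 CPM (NC-Foxc2-/-) in cycling leukocytes. Mrc1, the mannose receptor, was read at 108 CPM (72.1 to 157) and 480 CPM (367 to 617), against 134 and 150 CPM in the leukocytes that were not cycling. Cd3d, part of the T cell receptor complex, was at 190 CPM in 5 of 17 control cells and at 0 in the 13 NC-Foxc2-/- cells. The summed G2/M list stood at 4172 and 2621 CPM in cycling leukocytes, against 551 and 588 CPM in the others.

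Schwann cells, the glia of corneal and ciliary nerves and a neural crest derivative, gave 6 cycling cells in each library, of 653 (0.919%) and 895 (0.670%). Sox10, the transcription factor that defines the lineage, was found in 5 of the 6 control and 2 of the 6 NC-Foxc2-/- cells, and S100b, a calcium-binding protein of glia, in 4 of 6 cells of each library. The G2/M sum was 5852 and 16082 CPM in the cycling and 263 and 329 CPM in the other Schwann cells.

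Stroma held few cycling cells once named by 6 genes, with 4 of 3259 control cells (0.123%) and 2 of 4698 NC-Foxc2-/- cells (0.0426%). Of the 4 control cells, 1 held 357 keratin UMIs and was called a doublet, and the other cells of both libraries held none. The 5 genes of the fibroblast list had higher values than in the other stromal cells of each library, whereas genes of the stromal panel went both ways. Col3a1, the fibrillar collagen of loose connective tissue, stood at 8849 and 12407 CPM, against 2124 and 1774 CPM in the other stromal cells. The values were below those of the other stromal cells for Dcn, the proteoglycan decorin, at 5957 and 5043 against 22432 and 22099 CPM, and for the chains of type I collagen, with Col1a1 at 21155 and 16833 against 44769 and 48482 CPM and Col1a2 at 19703 and 10629 against 35420 and 31261 CPM. Pi16, a marker of adventitial fibroblasts, stood at 449 and 6022 CPM against 172 and 190 CPM. Kera, the keratocyte proteoglycan, was read at 1095 CPM in the control and at 0 in the 2 NC-Foxc2-/- cells, against 3732 and 3024 CPM. Of the 8 meshwork genes, Myoc and Edn3 had no UMI in the 6 cells and the other 6 had 1 to 11 UMIs in the control, the most for Col23a1, at 127 CPM in 3 of 4 control cells and 72.6 CPM in 1 of 2 NC-Foxc2-/- cells against 36.6 and 23.5 CPM. Mural cells gave 4 cycling cells of 1594 in the control and 0 of 1735 in the NC-Foxc2-/- library. Of these 4, 1 held 1050 keratin UMIs, and 2 held 113 and 334 UMIs of Dcn and Col1a1, the first of them a doublet call. The 2 cycling endothelial cells of the control held all 6 genes of their panel. The remaining control cells by panel were 3 with haemoglobin genes highest and 1 with melanocyte genes highest, and each of these held 511 to 853 UMIs of the keratins.

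The cycling epithelial cells were the only class with enough cells to compare gene by gene. Krt12 is the keratin of differentiated cornea, whereas Krt14 and Krt5 are the pair of basal cells. Krt12 was the highest of the 3 in 90 of 161 control and 20 of 35 NC-Foxc2-/- cells, Krt14 in 59 and 11, and Krt5 in 12 and 4. The median cell held 221 and 153 UMIs of Krt12, 139 and 87 of Krt14, and 101 and 85 of Krt5. Of epithelial cells with Krt12 highest, 90 of 1470 control (6.12%, 4.95 to 7.47) and 20 of 337 NC-Foxc2-/- cells (5.93%, 3.66 to 9.02) were cycling. Of those with Krt14 highest, 59 of 508 (11.6%, 8.96 to 14.7) and 11 of 177 (6.21%, 3.14 to 10.8) were. Of those with Krt5 highest, 12 of 160 (7.5%, 3.94 to 12.7) and 4 of 14 (28.6%, 8.39 to 58.1) were. In the control the intervals of the Krt14 and Krt12 groups do not overlap, while that of the Krt5 group overlaps both. In the NC-Foxc2-/- library the intervals of the Krt14 and Krt12 groups overlap widely, and that of the Krt5 group rests on 14 cells.

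Scaled to 10000 UMIs, the median cycling epithelial cell held 35.8 G2/M UMIs in the control and 40.7 in the NC-Foxc2-/- library, against 2.01 and 2.85 in other epithelial cells. The S phase list stood at 18.3 and 18.8, against 3.57 and 3.63. G2/M UMIs exceeded S phase UMIs in 103 of 161 (64.0%) and 25 of 35 (71.4%) cells, so both libraries held cells on either side.

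The cycling epithelial cells were next set against the other epithelial cells of the same library. They were chosen by Mki67 and Top2a, so these ratios describe the cells and support no claim on the genes that go with the choice. Of 8063 genes with at least 50 UMIs in this comparison in each library, 231 (2.86%) were at least 2-fold higher and 63 (0.781%) at least 2-fold lower in the cycling cells of both libraries. Taken alone, the control gave 614 higher (5.3%) and 471 lower (4.07%) of 11574 genes, and the NC-Foxc2-/- library 453 higher (5.61%) and 437 lower (5.41%) of 8076. The median log2 ratio over all genes was 0.08 and 0.09. Of the 231 genes, 69 (29.9%) were in the cell cycle lists, with Mki67 and Top2a, which chose the cells, counted among them. The share of list members among all 8063 genes was not counted, so this share has no background beside it.

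The 10 genes highest in both libraries, by the ratio nearer 1, all act in division. Top2a was 53.1 times (45.1 to 62.7) and 119 times (74.5 to 201) its level in other epithelial cells, and Mki67 33.2 and 19.7 times, which the choice of cells fixes. Nusap1, which bundles spindle microtubules, stood at 112 against 1.67 CPM in the control (66.7 times, 51.4 to 87.8) and at 105 against 2.36 CPM in the NC-Foxc2-/- library (44.6 times, 27.3 to 76.3). Prc1, the bundler of the central spindle, was 25.4 and 38.0 times higher and Cdk1 25.0 and 41.1 times. Ube2c, the ubiquitin carrier of the anaphase promoting complex, was 30.7 and 24.3 times higher, Anln of the contractile ring 26.3 and 24.0 times, and Birc5, known as survivin, 22.2 and 25.6 times. The histone genes Hist1h2ap and Hist1h1b were 19.7 and 32.0 times and 19.4 and 34.2 times higher.

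Mitotic kinesins were higher in 9 of 9 tested control genes and 2 of 2 NC-Foxc2-/- genes, and the list sum was 21.4 and 16.5 times higher. Kif11, the motor that pushes spindle poles apart, stood at 37.7 against 0.34 CPM in the control, and its 17 UMIs in cycling and 2 in other NC-Foxc2-/- cells were too few to be tested. The G2/M list was higher in 43 of 44 and 27 of 29 genes and its sum 11.6 times (11.3 to 11.8) and 9.99 times (9.56 to 10.4) higher. The exceptions were Gas2l3, a linker of actin and microtubules, at 1.59 times in the control and 0.445 times in the NC-Foxc2-/- library, where it rested on 6 UMIs, and G2e3 at 1.28 times in the NC-Foxc2-/- library. Replication histones were higher in 8 of 8 and 7 of 7 genes, with sums 8.97 and 13.4 times higher.

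Spindle checkpoint and anaphase promoting complex genes were higher in 11 of 12 and 6 of 6 genes (sums 5.58 and 5.79 times) and condensin and cohesin genes in 10 of 12 and 7 of 8 (3.44 and 3.77 times). Within the latter, the condensin subunits Smc2, at 13.4 and 15.5 times, and Ncapd2, at 16.5 and 21.0 times, stood far above the cohesin subunits Smc3, at 1.76 and 1.88 times, and Smc1a, at 2.11 and 2.12 times. The S phase list was higher in 32 of 38 and 25 of 29 genes (2.99 and 3.57 times). In it the nucleotide synthesis genes Tyms, at 6.06 and 9.62 times, and Rrm2, at 6.67 and 9.05 times, were above the helicase subunits Mcm2, at 1.80 and 2.76 times, and Mcm4, at 1.83 and 1.90 times.

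The mitotic cyclins Ccna2, at 28.7 and 28.5 times, and Ccnb1, at 26.5 and 33.2 times, were high, whereas the G1 cyclin Ccnd1 was at 1.007 (0.952 to 1.06) and 0.857 times (0.733 to 0.998). The other D-type cyclins stood at 0.859 and 0.570 times for Ccnd2 and at 1.24 and 2.02 times for Ccnd3, and the kinase Cdk2 at 1.30 and 3.16 times. The S phase cyclin Ccne1 lay between at 3.01 times in the control. Of the CDK inhibitors, 1 of 6 and 1 of 4 genes were 2-fold higher, Cdkn2c at 4.31 times in the control and Cdkn2d at 2.91 times in the NC-Foxc2-/- library, and the list sum stayed near 1 at 0.960 and 0.945 times. Cdkn1a, the p21 inhibitor and the most abundant of them, was at 0.877 and 0.837 times. Among transcriptional regulators, 7 of 12 and 3 of 6 genes were higher. Foxm1, the activator of mitotic genes, was at 16.3 times in the control, Mybl2 at 7.74 times and E2f1 at 2.32 times, whereas Rb1 was at 1.46 and 1.74 times and Myc at 1.27 and 1.47 times.

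**Figure D4:**
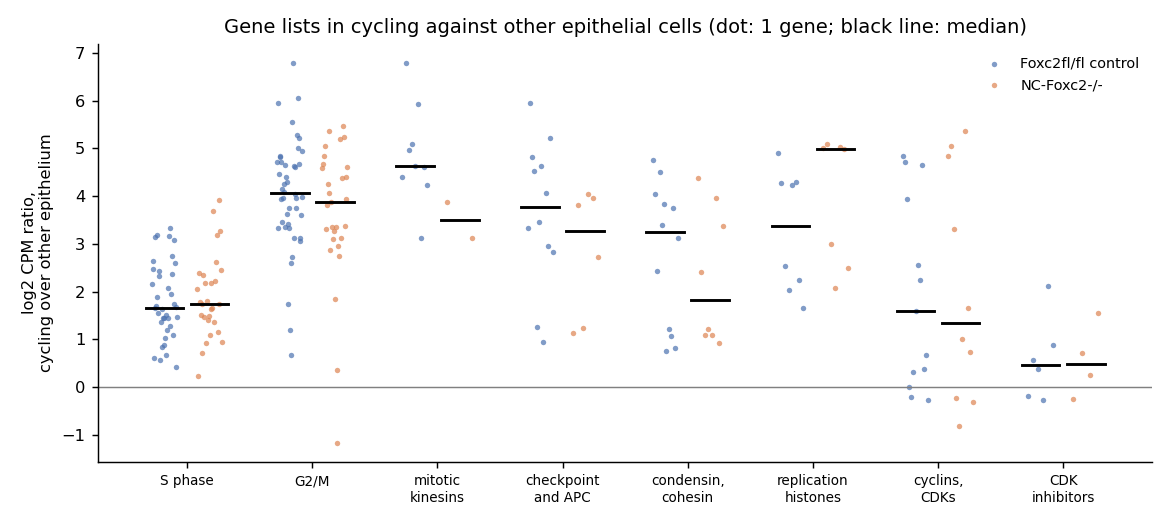
Log2 CPM ratio of cycling over other epithelial cells for the genes of each list, 1 dot a gene, in the control and NC-Foxc2-/- libraries, with black lines at the list medians. Dots of the G2/M list centre at 4.06 and 3.87 on the log2 scale and those of the S phase list at 1.66 and 1.74, while the CDK inhibitors spread around 0.

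The 10 genes lowest in the cycling cells of both libraries included genes of surface epithelium, conjunctiva and antigen presenting cells. Cd74, the invariant chain of antigen presentation, was at 10.3 against 113 CPM in the control (0.0916 times) and 2.24 against 29.3 CPM in the NC-Foxc2-/- library (0.0762 times). Psca, a surface protein of stratified and mucosal epithelium, was at 0.151 and 0.00225 times, and 97.2% of its UMIs in control cycling cells came from 1 cell. Asprv1, a protease of the outer epithelial layers, was at 0.243 and 0.00998 times, Ly6g6c at 0.286 and 0.202 times, and Krt6b at 0.351 and 0.120 times. Hopx, Plac8, Clic3 and Pdzk1ip1 were at 0.397 to 0.448 times in the control and 0.0933 to 0.401 times in the NC-Foxc2-/- library. The last of the 10 lowest was Krt13, a keratin of conjunctiva, at 0.515 and 0.0419 times. The corneal genes Krt12, at 0.635 and 0.80 times, and Slurp1, at 0.667 and 0.637 times, were also below 1, while Krt14 was at 1.12 and 0.961 times.

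Cycling epithelial cells of NC-Foxc2-/- mice were then compared with those of control mice. The division genes differed little between the libraries, whereas conjunctival keratins were far lower and 3 histone genes higher in the NC-Foxc2-/- cells. Of 7169 genes with at least 50 UMIs over both, 146 (2.04%) were at least 2-fold higher and 465 (6.49%) at least 2-fold lower in the NC-Foxc2-/- cells. Among the other epithelial cells of the same libraries the shares were 2.29% and 6.94% of 11638 genes, so that the cycling cells did not stand apart in number. The median log2 ratio over all genes was −0.04.

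Of 36 S phase genes none passed 2-fold in either direction, and their sum was 1.04 times the control's (0.992 to 1.10). Of 43 G2/M genes none was higher and Gas2l3 was lower at 0.466 times (0.166 to 1.07), and the sum was 1.12 times (1.09 to 1.16). Cdk1 stood at 117 and 116 CPM, Ccnb1 at 46.4 and 46.9 CPM, and Birc5 at 274 and 281 CPM in control and NC-Foxc2-/- cells. No kinesin, checkpoint, condensin or cohesin gene passed 2-fold among 9, 11 and 12 tested. Of 11 cyclins and kinases Cdk2 was higher, at 19.0 against 7.497 CPM (2.53 times, 1.34 to 4.61), from 17 and 37 UMIs. Of 6 CDK inhibitors Cdkn2b was at 0.431 times (0.135 to 1.06) and Cdkn2c at 0.474 times (0.199 to 0.974), from 5 and 8 NC-Foxc2-/- UMIs. The regulators gave 1 lower gene of 11, Mybl2 at 0.352 times (0.0701 to 1.09), which rested on 3 UMIs.

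Replication histones were the cell cycle list with most genes past 2-fold. Hist1h2ap, at chromosome 13, 21833026 to 21833507 in mm10, stood at 480 CPM in control and at 1524 CPM in NC-Foxc2-/- cells (3.18 times, 2.97 to 3.40). Hist1h4d stood at 68.7 and 200.05 CPM (2.91 times, 2.42 to 3.50), and Hist1h2ae at 83.3 and 191 CPM (2.29 times, 1.91 to 2.75). The other 4 tested genes were at 0.89 to 1.71 times and the list sum at 2.07 times (1.98 to 2.17), against 1.39 times in other epithelial cells. Relative to other epithelial cells of its library, Hist1h2ap was at 19.7 (control) and 32.0 times (NC-Foxc2-/-), Hist1h4d at 4.71 and 5.64, and Hist1h2ae at 18.7 and 32.5. By these values and the CPM above, each was also higher in the other epithelial cells of the NC-Foxc2-/- library. The rise was thus not confined to cycling cells. Both libraries had the same median of 5 Hist1h2ap UMIs a cell, and 1 NC-Foxc2-/- cell with 306 UMIs gave 22.4% of that library's sum. Without the cell with most UMIs in each library, Hist1h2ap was at 2.63, Hist1h4d at 2.57 and Hist1h2ae at 1.78 times. Histone genes have near-identical copies, so the split of reads among them is uncertain.

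The genes with the highest ratios included several that rested on single cells. Esp6, an exocrine gland secreted peptide gene, was 26.0 times higher (16.1 to 43.9), from 99 UMIs in 5 of 35 NC-Foxc2-/- cells, 53.5% of them from 1 cell, and 21 UMIs in 8 control cells. Yae1d1 was 4.47 times higher, but 72.4% of its NC-Foxc2-/- UMIs came from 1 cell and it was at 1.31 times (0.829 to 2.01) without the top cells. Taf1d was 3.79 times higher and 2.26 times without them. Areg, the EGF receptor ligand amphiregulin, stood at 177 and 599 CPM (3.39 times, 3.04 to 3.78), 2.99 times without them. Its ratio in the other epithelial cells was 1.498, while both libraries had a median of 1 Areg UMI per cycling cell.

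Lars2, Gm42418 and AY036118 were spread over most cells and were high in the other epithelial cells too. Lars2, a mitochondrial leucyl-tRNA synthetase, was 5.23 times higher (4.29 to 6.37) and 3.67 times in other epithelium. Gm42418 was 3.47 and 3.37 times higher, with 23 to 185 UMIs in each control and 67 to 378 in each NC-Foxc2-/- cell. AY036118 was 3.37 and 2.88 times higher. The last pair overlap on opposite strands at chromosome 17, 39846958 to 39848788 and 39847113 to 39848035, a locus with ribosomal RNA sequence, so their reads may not be fully told apart.

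The lowest ratios belonged to keratins and other genes of conjunctival and stratified surface epithelium. All 5 conjunctival markers were lower, and their sum was 551 CPM in control and at 64.8 CPM in NC-Foxc2-/- cycling cells (0.118 times, 0.0891 to 0.153), against 0.162 times in the other epithelial cells. Krt13 had 678 UMIs in 40 of 161 control cells and 2 UMIs in 2 of 35 NC-Foxc2-/- cells (0.0163 times, 0.00197 to 0.0590). Krt19 stood at 120 and 7.82 CPM (0.0650 times), Krt4 at 212 and 25.7 CPM (0.121 times) and Krt8 at 66.9 and 29.1 CPM (0.435 times). Muc4, a membrane mucin, had 72 control UMIs and none in NC-Foxc2-/- cells, a ratio of at most 0.230 from 3 counts. In other epithelium Muc4 was at 0.961 times, unlike Krt13, Krt4, Krt19 and Krt8, which were at 0.0601 to 0.294 times. The corneal list stood at 0.781 times with no gene past 2-fold, and the limbal list at 0.764 times with only Krt15, at 2168 and 850.5 CPM (0.392 times), past it. Krt12 was at 0.694, Pax6 at 1.17 and Trp63 at 1.15 times.

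Asprv1 had 865 UMIs in 47 control cells and 5 UMIs in 3 NC-Foxc2-/- cells (0.0319 times), although it was at 0.776 times in other epithelium. Hopx was at 0.0605 times, Krt6b at 0.0773, Plac8 at 0.0884 and Pdzk1ip1 at 0.198 times, with 0.216, 0.227, 0.378 and 0.237 times in other epithelium. Rgcc, a regulator of the cell cycle and complement response, stood at 139 and 24.6 CPM (0.177 times, 0.110 to 0.270), and Vim, the intermediate filament of mesenchyme, at 176 and 39.1 CPM (0.223 times, 0.154 to 0.312), with 0.801 and 0.674 times in other epithelium. Whether the ratios in cycling and other epithelium differ was not tested. The 10 genes with the lowest ratios were lower without the top cell of each library as well, at 0.0102 times for Krt13 up to 0.242 times for Vim.

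Genes of some other cell types moved with this comparison. Haemoglobin and other red cell genes summed to 3712 CPM in control and at 59.2 CPM in NC-Foxc2-/- cycling epithelial cells, with 4 of 4 tested genes lower, and to 21817 and 10378 CPM in the other epithelial cells. Hbb-bs, a beta-globin, had a median of 1 UMI per cell in both libraries, and 1 control cell gave 26.8% of its control UMIs. Melanocyte genes summed to 94.4 and 2.24 CPM, with 4 of 4 tested genes lower. Few cells carried them, and 1 of the 2 control cells with Tyrp1 gave 99.1% of its UMIs. Leukocyte panel genes gave only 65 of 4935423 control and 3 of 894777 NC-Foxc2-/- UMIs. The sum of the stromal panel genes was nearly the same, at 480 and 475 CPM, but its members went both ways. Those tested ranged from Col3a1 at 0.241 times, the only one past 2-fold, to Col1a1 at 1.56 times. The median control and NC-Foxc2-/- cell held 0 and 2 UMIs of Dcn and 1 and 4 of Col1a1. The highest cells held 89 and 20 UMIs of Dcn and 136 and 17 of Col1a1. Of 10 immediate early genes, which dissociation is known to induce, none passed 2-fold. Their part in the differences was not tested.

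**Figure D5:**
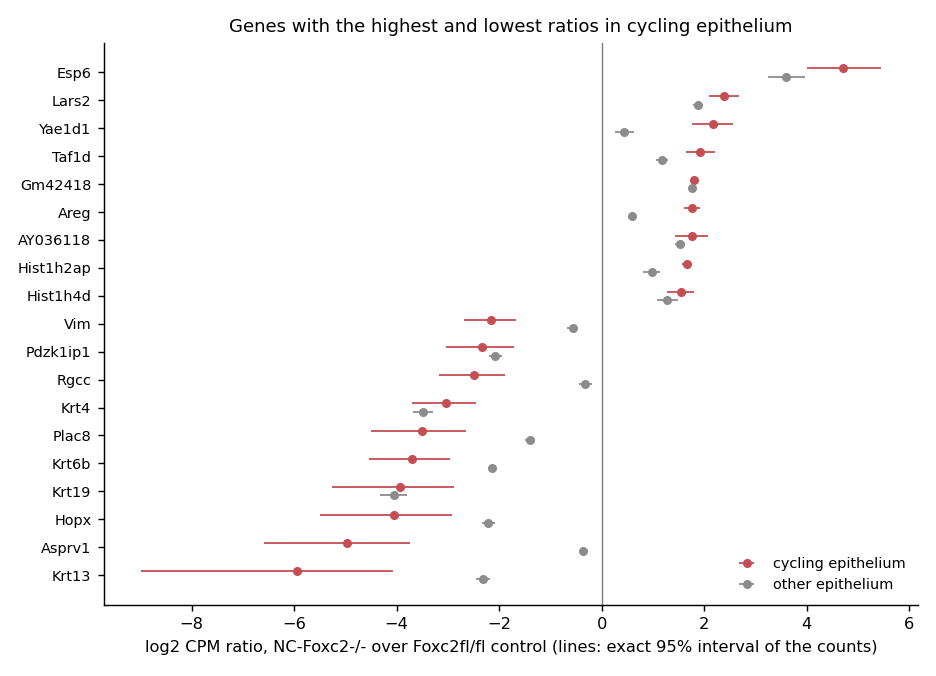
Log2 CPM ratio of NC-Foxc2-/- over Foxc2fl/fl control cells for 9 of the 10 genes with the highest and the 10 with the lowest ratios in cycling epithelium, with the ratio of the same gene in other epithelial cells beside it and lines for exact 95% intervals of the counts. Krt13 lies at −5.94 in cycling and −2.32 in other epithelium, and Esp6 at 4.70 and 3.596.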

How the data were processed

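Single cells were sequenced in droplets with the 3.1 version of the 10x Genomics 3' kit, in 2 libraries, 1 pool of mice per genotype. The authors deposited raw UMI counts per gene and barcode for 32285 genes, made with Cell Ranger 4.0.0 on mm10 per the submitters' processing notes. No source used here names the annotation release. A combined table of the authors was left out, since its 22941 columns do not name a library.

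Barcodes with at most 8% mitochondrial UMIs and at least 1000 UMIs were kept, which left totals of 119355777 control and 94362313 NC-Foxc2-/- UMIs. The 8% limit is the study's and the UMI limit was added. Doublets were called per library with Scrublet in scanpy 1.11.5 and kept, and leaving them out was an alternative. Cell classes came from raw UMI sums. The rule names no mural genes, so Rgs5 and Acta2 were used. Panel classes came from 5 or 6 genes, each divided by its mean over kept cells. Panels give a name to nearly every cell, also to those with few of its genes.

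UMIs were summed per library and class and divided by the sum of all UMIs to give CPM. Depth sets the precision, and the cycling epithelial sums held 4935423 control and 894777 NC-Foxc2-/- UMIs. Genes were called higher or lower at a 2-fold ratio with at least 50 UMIs over the cells compared. This is a rule of size without a p-value, since there was 1 library per genotype. A ratio against 0 UMIs is a bound from 3 counts. The size rule and the binomial intervals were tested on simulated counts. These were drawn per gene over a whole group, without UMIs gathered in single cells, so they cannot show how often 1 cell leads to a call. Expected shares at 1000 or 5000 UMIs were computed exactly (hypergeometric) from the counts of each cell.

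Named are members of the 31 lists, and per comparison the 10 genes with the highest and the 10 with the lowest ratio that reached 100 CPM in the higher group, ranked for cycling against other cells by the ratio nearer 1 of both libraries. The ranking passed over haemoglobin, ribosomal protein, mitochondrial and Y-linked genes, Xist and Tsix. Which list members are named, beyond the 2 highest and 2 lowest of a list, was chosen after their values were seen, and 3 genes that the rule or a panel holds are not reported here. The cells, lists and panels were chosen with earlier results of these data known. Promoter windows came from RefSeq (GRCm38.p6) and gene positions from GENCODE on mm10, which is the same assembly. Sums used pandas 2.3.3 and NumPy 2.4.6 in Python 3.11.15, intervals SciPy 1.17.1 and plots matplotlib 3.10.9.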

Additional observations from a re-analysis of the deposited data

Results flagged for a closer look

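Of 8063 genes tested in both libraries, 5 were at least 2-fold higher in cycling than in other epithelial cells of one library and at most 0.5 times in the other library. They were picked after their values were seen, each library is 1 pool, and the difference was not tested. Edn2, an endothelin, was at 2.59 times in the control, from 425 UMIs in 30 of 161 cycling cells, and at 0.0279 times in the NC-Foxc2-/- library, from 1 UMI. Nppb, a natriuretic peptide, was at 2.04 times in the control, from 62 UMIs in 6 cells, and at 0 in the NC-Foxc2-/- cycling cells. Hs3st1, a heparan sulfate sulfotransferase, was at 0.488 times in the control and 2.03 times in the NC-Foxc2-/- library, where 18 of 31 UMIs came from 1 cell. Serpinb2, a protease inhibitor, was at 0.464 and 5.05 times, and 47 of its 49 NC-Foxc2-/- UMIs came from 1 cell. Cited1, a transcriptional coactivator, was at 0.494 and 4.12 times, and 41 of its 46 NC-Foxc2-/- UMIs came from 1 cell.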

How the results depend on the processing

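Every difference rests on 1 library per genotype, so no library could be left out, and a difference between mice of a pool cannot be seen. No paired analysis was possible because each genotype has 1 library and no result comes from a test. Of 174 values of 22 summary results, 113 stayed within their counting interval or within 1.5 times of the count reported, and 61 moved beyond it. Whether the order of the libraries changed was not scored for these. It did change for the cycling share of epithelium, which was 7.32% in the control and 6.55% in the NC-Foxc2-/- library. Thinned to 1000 UMIs these shares were 0.310% and 0.372%, and thinned to 5000 UMIs 2.77% and 2.81%. Of 200 values of named genes, 167 stayed, 33 moved and none changed direction. The cause of each move was not tested beyond what its construction shows.

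With at least 2 UMIs of each marker, 1.28% of control and 0.375% of NC-Foxc2-/- cells were cycling, and with at least 5 G2/M genes in place of the markers 7.14% and 2.95%. Epithelial shares were then 4.87% and 4.31%, and 25.2% and 24.9%. Thinned to 1000 UMIs, totals were 0.0998% and 0.0522% and epithelial shares 0.310% and 0.372%, and at 5000 UMIs 0.975% and 0.414%, and 2.77% and 2.81%. Stroma depended most on the class rule. Its share of cycling cells was 5.39% and 12.3% with sums divided by their means, 1.96% and 3.51% by panels, 9.94% in the control without cells high in both sums, and 49.5% in the NC-Foxc2-/- library with 5 G2/M genes. Cycling stroma was 0.344% with 2 UMIs in the control, 2.20% and 1.82% with 5 G2/M genes, 0.247% and 0.103% with divided sums, 0.123% and 0.0426% by panels, 0.0432% and 0.0395% at 1000 UMIs, and in the control 0.300% without mixed cells and 0.330% at 5000 UMIs. Leukocytes were 5.39% and 19.3% of cycling cells with divided sums and 8.33% and 22.8% by panels. Of leukocytes, 0.794% and 9.52% were cycling in the control with 2 UMIs and with 5 G2/M genes, and 0.132% and 0.114% at 1000 UMIs. Epithelium was 84.3% of control cycling cells with divided sums, 85.6% without mixed cells, and 43.3% in the NC-Foxc2-/- library with 5 G2/M genes.

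Between genotypes, the histone sum was 2.26 times with divided sums. In Krt12-high cells alone the S phase sum was 1.19, the G2/M sum 1.24 and the histone sum 2.83 times, and without the largest NC-Foxc2-/- cell the S phase and G2/M sums were 1.10 and 1.16 times. Higher and lower genes numbered 351 and 953 with 20 UMIs, 63 and 242 with 100 UMIs, and 26 and 177 at 3-fold. Genes higher and lower in cycling cells of both libraries numbered 148 and 32 with 100 UMIs and 117 and 34 at 3-fold. TTTGAA within 100 bases before the start was found in 20.5% of G2/M windows, against 5.77% of all. The thinning to 5000 UMIs, the mixed cells, the Krt12-high cells and the cells with most UMIs, overall or of a gene, were alternatives chosen after seeing the data. The depth of 35 NC-Foxc2-/- cycling epithelial cells limits genes under about 100 CPM, and cycling classes of 6 or fewer cells allow only a description.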
